A study of Mus musculus with 36 samples.

Results

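The miRNAs of the imprinted Dlk1-Dio3 locus, a large group of miRNAs transcribed from 1 imprinted region of the mouse genome, were followed in brain tissue from an amyloid mouse model and from wild-type mice. They were chosen by name: every mature miRNA whose number belongs to a hairpin of the locus was taken, which gave 95 of the 1411 mature miRNAs in the table. Of the 50 numbers looked for, 49 had at least 1 entry, and miR-654 had none. The small RNA libraries fell into 4 groups of 3, APP/PS1 mice of 6 months, wild-type mice of 6 months, APP/PS1 mice of 9 months and wild-type mice of 9 months, all on the C57BL/6 background. The APP/PS1 mice carry the mutant APP695swe and PS1-dE9 transgenes, known to drive amyloid plaques, and the wild-type mice carry neither. Another 12 libraries of long RNA from the same groups gave mRNA and lncRNA levels. The labels do not say whether each library came from a separate mouse, and a p-value here speaks of library-to-library spread alone, which may be technical.

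The locus is expressed according to parent of origin. The protein-coding genes Dlk1, Rtl1 and Dio3 are read from the paternal chromosome, and the long RNAs Meg3, Rian and Mirg, together with all of the miRNAs, from the maternal one. Maternal transcripts of the region are processed into hairpins, and each hairpin yields a 5p and a 3p arm, of which one is usually kept in the silencing complex. In brain these miRNAs are found mainly in neurons. miR-127, miR-136, miR-431, miR-433 and miR-434 lie antisense to Rtl1 and can direct its cleavage, miR-134 is known for its part in dendritic spine growth, and the cluster from miR-379 to miR-410 responds to neuronal activity.

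RefSeq placed 91 of the 95 members, all on mouse chromosome 12 (GRCm38.p6) between 109563710 and 109743784. That span of 180.075 kb held 49 hairpins in 3 stretches. The proximal stretch held 21 members from 11 precursors within 31.678 kb, 19 of them antisense to Rtl1. The middle stretch held 4 members from 2 precursors inside Rian. The distal stretch held 70 members from 36 precursors within 34.72 kb, and 16 of them lay inside Mirg. The miR-299b hairpin, antisense to miR-299a, gave the only 2 members on the minus strand. The mature sequences of the members on which the results turn are given from RefSeq, 5′ to 3′, with the seed (bases 2 to 8, the part that pairs with targets) in capitals. The 3 most abundant members are shown first.
miR-127-3p: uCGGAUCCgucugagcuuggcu
miR-434-5p: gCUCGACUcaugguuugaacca
miR-381-3p: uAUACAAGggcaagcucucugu
Near-identical members are shown next, because reads of such members can be hard to assign.
miR-300-3p: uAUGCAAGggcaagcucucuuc
miR-379-3p: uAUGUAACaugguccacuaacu
miR-411-3p: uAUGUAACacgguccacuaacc
miR-376a-3p: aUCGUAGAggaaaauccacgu
miR-376b-3p: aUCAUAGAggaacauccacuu
The last set holds the other arm of the miR-376a hairpin and, besides miR-376a-3p and miR-411-3p, those with the smallest unadjusted p-values between genotypes.
miR-376a-5p: gGUAGAUUcuccuucuaugagu
miR-134-3p: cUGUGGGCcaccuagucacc
miR-679-5p: gGACUGUGaggugacucuuggu
miR-136-3p: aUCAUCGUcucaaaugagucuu
miR-540-3p: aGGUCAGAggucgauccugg
miR-667-3p: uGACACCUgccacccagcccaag

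The family is not defined by a common sequence. The 91 sequences held 85 different seeds, and 12 members shared theirs with another member. miR-379-5p and miR-1193-5p share the seed GGUAGAC, and miR-379-3p and miR-411-3p share AUGUAAC. Counted from the 5′ end, miR-381-3p differs from miR-300-3p by G4A, U21G and C22U, and miR-376b-3p differs from miR-376a-3p by G4A, A13C and G20U. In both pairs the seeds therefore differ at 1 base. The members were 18 to 25 bases long with a median of 22, and U was the first base in 39.6% of them, against 43.3% of 1034 other miRNAs of the table with a sequence.

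Small RNA libraries held 5082755 to 8595108 miRNA reads, and a count of 0 allows up to 3 reads, or 0.349 to 0.590 CPM (reads of a miRNA scaled to a common library total) at these depths. Intervals and limits of this kind cover counting error only. The extraction text in the labels speaks of retinas while the tissue label reads brain. In the long RNA libraries all 7 neuronal markers were found, whereas 6 of 8 photoreceptor markers were below 0.5 FPKM (fragments scaled to length and depth) in every library, and none of the 8 exceeded 0.702 FPKM. At 6 months miR-182-5p, a miRNA abundant in sensory and epithelial cells, stood at 14146, 2364 and 94.2 CPM in the APP/PS1 libraries and at 1867, 256 and 1985 CPM in the wild-type libraries, against 72.9 to 141.2 CPM in all 6 libraries of 9 months. Sums for neurons, oligodendrocytes and blood overlapped at both ages. The neuronal markers summed to 1728 to 1863 FPKM in APP/PS1 and 1764 to 1926 FPKM in wild-type brains at 6 months. At 9 months they summed to 1769 to 1863 FPKM in APP/PS1 and 1756 to 1855 FPKM in wild-type brains. Summed markers of several other cell types and regions separated the genotypes without overlap. The photoreceptor markers did so at 6 months, at 0.785 to 1.31 FPKM in APP/PS1 and 1.34 to 1.53 FPKM in wild-type brains. At 9 months the 8 choroid plexus markers summed to 76.6 to 296 FPKM in APP/PS1 and 310 to 353 FPKM in wild-type brains, and the 5 ependymal markers to 4.11 to 5.70 FPKM in APP/PS1 and 6.78 to 7.49 FPKM in wild-type brains. At that age the 6 microglial markers summed to 143 to 173 FPKM in APP/PS1 and 115 to 132 FPKM in wild-type brains, the pituitary markers (7 of 9 found) to 19.98 to 242 FPKM in APP/PS1 and 3.88 to 19.3 FPKM in wild-type brains, and the 6 hippocampal markers to 87.4 to 97.4 FPKM in APP/PS1 and 103 to 104 FPKM in wild-type brains. At 6 months the 6 astrocyte markers summed to 719 to 766 FPKM in APP/PS1 and 626 to 668 FPKM in wild-type brains, and the striatal markers (7 of 8 found) to 307 to 335 FPKM in APP/PS1 and 374 to 421 FPKM in wild-type brains. In the small RNA libraries the 7 miRNAs listed as brain markers separated the genotypes at both ages. They summed to 169322 to 172382 CPM in APP/PS1 and 176290 to 201063 CPM in wild-type brains at 6 months. At 9 months they summed to 164422 to 174966 CPM in APP/PS1 and 179093 to 183269 CPM in wild-type brains. The 4 miRNAs of choroid plexus and ciliated cells summed to 1046 to 1605 CPM in APP/PS1 and 1755 to 1792 CPM in wild-type brains at 9 months. Choroid plexus content at 6 months also varied within a genotype, from 101 to 330 FPKM in APP/PS1 and from 6.07 to 294 FPKM in wild-type brains. The part of these differences in the results was not tested, and in bulk tissue fewer cells of a type and less RNA per cell cannot be told apart.

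The locus supplied a steady share of the brain miRNA reads in every group. At 6 months its share was 9.94%, 11.2% and 10.99% in the APP/PS1 libraries and 9.62%, 11.4% and 11.8% in the wild-type libraries. At 9 months it was 10.7%, 10.6% and 11.6% in APP/PS1 brains and 11.3%, 10.8% and 10.2% in wild-type brains. The Wilson 95% interval of each share was at most 0.0544 percentage points wide, so nearly all of this spread lay between libraries. The genotypes overlapped at both ages. Means were 10.7 ± 0.665% in APP/PS1 and 10.9 ± 1.16% in wild-type brains at 6 months, and 10.99 ± 0.538% in APP/PS1 and 10.8 ± 0.541% in wild-type brains at 9 months (SD, n = 3 each). With the miR-182, miR-183, miR-96, miR-200 and miR-141 families taken out of the total, the means at 6 months were 10.9 ± 0.378% in APP/PS1 and 10.99 ± 1.16% in wild-type brains.

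**Figure D1:**
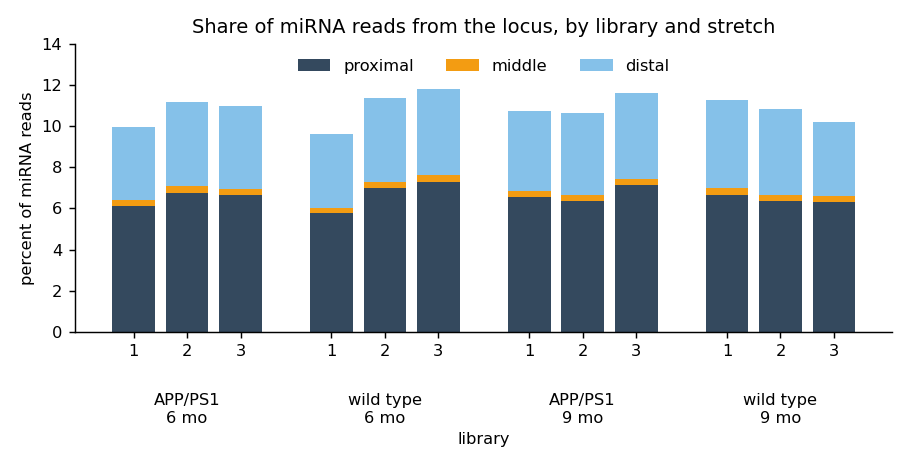
Percent of all miRNA reads (y axis) that came from the locus in each of the 12 small RNA libraries (x axis, grouped by genotype and age), with each bar divided into proximal, middle and distal stretches. All bars end between 9.62% and 11.8%, and the order of the stretches is the same in each.

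Within the locus the reads were unevenly spread. The proximal stretch gave 60.6% of the reads of the locus, the middle stretch 2.77% and the distal stretch 36.6%. miR-127-3p alone gave 38.3%, the top 3 members 70.6% and the top 10 members 87.5%. The proximal share of all miRNA reads was 6.51 ± 0.339% in APP/PS1 and 6.67 ± 0.795% in wild-type brains at 6 months, and 6.69 ± 0.390% in APP/PS1 and 6.44 ± 0.195% in wild-type brains at 9 months. The distal share was 3.90 ± 0.302% in APP/PS1 and 3.96 ± 0.327% in wild-type brains at 6 months, and 4.01 ± 0.159% in APP/PS1 and 4.02 ± 0.360% in wild-type brains at 9 months (SD, n = 3 each). The genotype means lay within 1 SD of each other for both stretches, apart from the proximal stretch at 9 months, where the gap of the means exceeded the SD of the wild-type group but not that of the APP/PS1 group.

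Members of 1 hairpin, and hairpins of 1 transcript, differed by orders of magnitude. Over the 12 libraries 12 members averaged above 1000 CPM, 27 from 100 to 1000, 23 from 10 to 100, 20 from 1 to 10 and 13 at 1 CPM or less. In all 12 libraries 86 members were detected, and 7 were among the 50 most abundant miRNAs of the tissue. CPM has no length term, and the mature members differ little in length. The 80 members that passed the filter on low counts spanned 27033-fold, down to miR-666-3p at 1.54 CPM. The other 15 averaged at most 7.5 reads and were not tested.

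**Figure D2:**
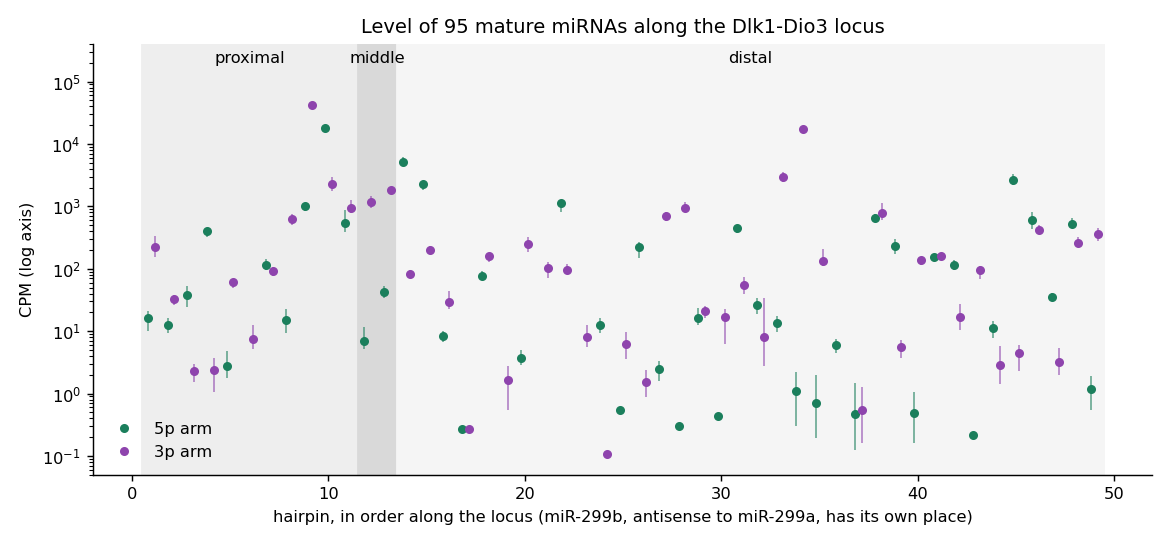
Mean CPM over 12 libraries (y axis, log scale) of the 5p and 3p arms of each hairpin in order along the locus (x axis). Vertical lines run from the lowest to the highest library where no library was at 0, and shading marks the proximal, middle and distal stretches. miR-127-3p, at a mean of 41511 CPM, is the highest point.

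None of the most abundant members passed the test between genotypes, and their values overlapped at nearly every comparison. miR-127-3p, the sixth most abundant miRNA of these brains, had 39081, 41643 and 42759 CPM in APP/PS1 and 36275, 45754 and 47314 CPM in wild-type brains at 6 months. At 9 months it had 40984, 38043 and 45366 CPM in APP/PS1 and 40704, 38810 and 41394 CPM in wild-type brains. The groups overlapped at both ages, and the log2 fold change of APP/PS1 over wild type was -0.08 at 6 months (95% interval -0.30 to 0.15) and 0.06 at 9 months (-0.17 to 0.28), with edgeR adjusted p of 0.885 and 0.960. miR-434-5p, from the neighbouring hairpin, had 18584, 19409 and 19364 CPM in APP/PS1 and 18653, 18003 and 15545 CPM in wild-type brains at 9 months, a log2 change of 0.16 (edgeR adjusted p = 0.836), or 0.10 without the third wild-type library. One APP/PS1 library lay inside the wild-type range there. miR-381-3p, the leading member of the distal stretch, had 16683, 16797 and 17810 CPM in APP/PS1 and 19231, 19478 and 15117 CPM in wild-type brains at 9 months. The wild-type values enclosed the APP/PS1 values, and the log2 change was -0.05.

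Of the 12 members above 1000 CPM, miR-379-5p, the head of the distal cluster, was the only one whose genotypes did not overlap at 9 months, with 5720, 5246 and 5914 CPM in APP/PS1 and 4827, 5046 and 4869 CPM in wild-type brains. Its log2 change was 0.22 (edgeR adjusted p = 0.836), and at 6 months the groups overlapped with 4784, 4672 and 5333 CPM in APP/PS1 and 4434, 6082 and 5422 CPM in wild-type brains. The remaining 8 of these abundant members were miR-300-3p, miR-541-5p, miR-434-3p, miR-411-5p, miR-370-3p, miR-341-3p, miR-329-5p and miR-127-5p, with means of 2991 CPM for miR-300-3p down to 1018 CPM for miR-127-5p. Over all 12 the log2 changes lay between -0.16 and 0.05 at 6 months and between -0.12 and 0.22 at 9 months. No 95% interval of these 12 reached beyond 0.44 at 6 months or 0.47 at 9 months in either direction, and 1.5-fold is 0.58 on this scale.

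**Figure D3:**
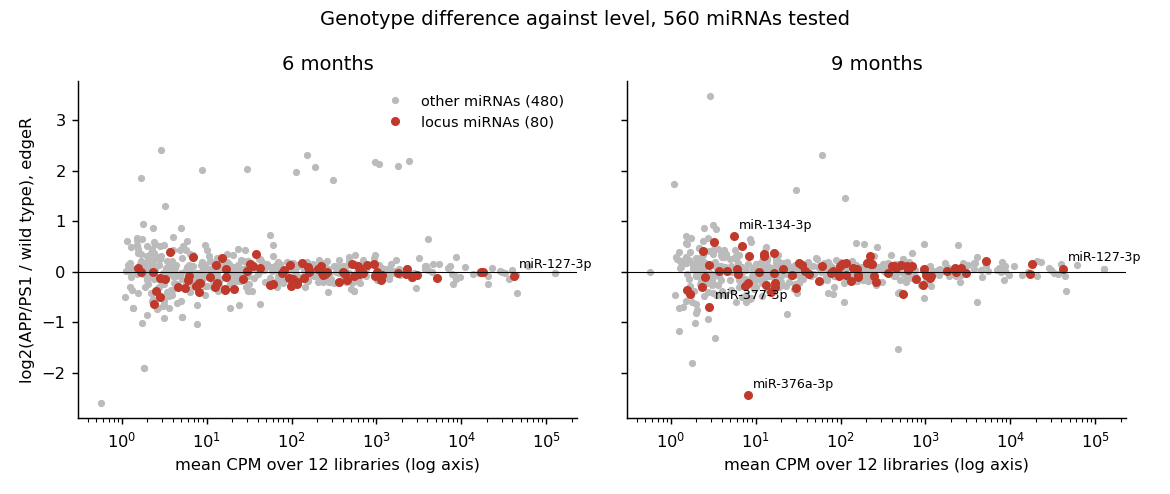
Log2 fold change of APP/PS1 over wild type (y axis, edgeR) against mean CPM over 12 libraries (x axis, log scale) for 80 locus members in red and 480 other miRNAs in grey, at 6 months and at 9 months. Most locus members lie close to 0. miR-376a-3p lies farthest from it, at -2.44 at 9 months, where miR-134-3p is at 0.70 and miR-377-3p at -0.69.

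Across the whole locus no member passed an adjusted p of 0.05 in edgeR's quasi-likelihood test in any contrast. At 6 months 0 of 80 members were called, and the share called among all 560 miRNAs tested was 0%. At an unadjusted p under 0.05 there were 4 members, all lower in APP/PS1, against 5.71% of all miRNAs tested. At 9 months 0 members were called, again against 0% of all tested, and 6 had an unadjusted p under 0.05, 4 higher and 2 lower in APP/PS1, against 5.36% of all. DESeq2 called 0 members at 6 months and 1, miR-376a-3p, at 9 months, where it called 0 and 2 of all 560 miRNAs tested. Over both ages together 0 members were called by edgeR, and 4 reached the unadjusted threshold against 7.14% of all tested. DESeq2 called 1 member there, and 1 of all 560 tested.

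The middle of the distribution lay near no change. At 6 months the median log2 change was -0.05 over the 80 members and -0.01 over all 560 miRNAs tested, with 26 members (32.5%) higher in APP/PS1, against 48.2% of all tested. Without the third wild-type library of 6 months the median was 0.03, with 42 of 81 members higher. At 9 months the median was 0.01 for the members and 0.01 for all miRNAs tested, with 42 of 80 members (52.5%) higher in APP/PS1, against 52.3% of all tested. By stretch, the medians at 6 months were -0.02 for the proximal and -0.08 for the distal members, and at 9 months 0.03 for the proximal and 0.00 for the distal members. The 95% interval stayed within 1.5-fold in either direction for 52 of 80 members at 6 months and for 52 at 9 months. Of the 39 members above 100 CPM it did so for 36 at 6 months and 35 at 9 months.

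miR-376a-3p was the only member whose genotypes did not overlap in the same direction at both ages. The share of all miRNAs tested that did so at both ages was not counted, so this says nothing of the locus as a whole. At 6 months the 3 APP/PS1 libraries all lay above the 3 wild-type libraries for 1 member, miR-323-5p, against 2.68% of all miRNAs tested. They all lay below for 5 members, miR-337-3p, miR-376a-3p, miR-496a-3p, miR-540-3p and miR-667-3p, against 5.71% of all. At 9 months they all lay above for 7 members, miR-134-3p, miR-299a-5p, miR-379-5p, miR-411-3p, miR-666-5p, miR-673-5p and miR-679-5p, against 4.46% of all. They all lay below for 4 members, miR-136-3p, miR-369-3p, miR-376a-3p and miR-485-3p, against 6.61%. As a share of the 80 members, the 7 at 9 months and the 5 at 6 months exceeded the whole-table share and the other counts fell short of it, and these differences in share were not tested. Several of the marker sums given above for cell types and regions separated the genotypes in the same groups of mice, and their part was not tested.

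miR-376a-3p had the widest genotype difference of the locus. At 9 months it had 4.79, 2.77 and 3.46 CPM in APP/PS1 and 23.0, 34.0 and 5.31 CPM in wild-type brains. At 6 months it had 3.66, 3.17 and 3.34 CPM in APP/PS1 and 5.42, 3.75 and 4.19 CPM in wild-type brains. The first 2 wild-type libraries of 9 months were high, and the third lay within the range of the other 9 libraries. Groups did not overlap at either age, but at these levels a library held only 16 to 204 reads. The log2 change at 9 months was -2.44 (SE 0.50, 95% interval -3.54 to -1.33, unadjusted p = 0.000464, edgeR adjusted p = 0.130), and the difference between the effects at 9 and 6 months was -2.04 (edgeR adjusted p = 0.631).

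The call for miR-376a-3p depended on the tool and on 1 library. DESeq2 gave a log2 change of -2.45 with an adjusted p of 4.75e-05 at 9 months. edgeR without the third wild-type library of 9 months gave -2.89 with an adjusted p of 0.000105, where each of the other single libraries left out gave -1.90 to -2.70 with adjusted p of 0.178 to 0.654. Without that library the difference between ages was -2.48 with an adjusted p of 0.0166. Without the filter on low counts edgeR gave -2.43 at 9 months with an adjusted p of 2.63e-22. That setting called 14 of 1411 miRNAs at 9 months, where the main fit called 0 of 560. The 5p arm of the same hairpin did not follow: miR-376a-5p had 22.0, 27.4 and 26.9 CPM in APP/PS1 and 31.9, 28.0 and 21.1 CPM in wild-type brains at 9 months, and the groups overlapped. Nor did the relative that differs at 3 bases, miR-376b-3p, which had 44.5, 54.3 and 54.7 CPM in APP/PS1 and 70.6, 50.8 and 54.7 CPM in wild-type brains at 9 months. miR-376c-3p had 6.18, 17.5 and 15.5 CPM in APP/PS1 and 19.3, 7.82 and 21.1 CPM in wild-type brains, with overlap. How the authors assigned reads that fit more than 1 member is not given in the sources used here, so levels of these relatives are uncertain. Summed over the miR-376a, miR-376b and miR-376c 3p arms, the level at 9 months was 67.9 ± 10.8 CPM in APP/PS1 and 95.5 ± 16.2 CPM in wild-type brains (SD, n = 3 each).

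The same 2 wild-type libraries were the highest of 9 months for other members. miR-136-5p, antisense to Rtl1, had 530, 498 and 463 CPM in APP/PS1 and 803, 877 and 393 CPM in wild-type brains at 9 months (log2 change -0.44, edgeR adjusted p = 0.836). miR-377-3p had 2.27, 2.77 and 1.98 CPM in APP/PS1 and 5.71, 4.49 and 1.42 CPM in wild-type brains (log2 change -0.69, edgeR adjusted p = 0.836). For miR-299a-3p only the second of them stood apart, with values of 33.1, 22.7 and 27.9 CPM in APP/PS1 and of 32.8, 44.3 and 29.7 CPM in wild-type brains (log2 change -0.33, edgeR adjusted p = 0.836). In all 3 the genotypes overlapped, and each value moved with 1 library: miR-136-5p was at -0.25 without the second wild-type library of 9 months and -0.72 without the third, miR-377-3p at -0.36 without the first and -1.08 without the third, and miR-299a-3p at -0.16 without the second and -0.21 without the second APP/PS1 library. What set those libraries apart was not tested.

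Several members at low to middle levels stood higher in APP/PS1 brains at 9 months without passing the test. miR-134-3p, the minor arm of the miR-134 hairpin, had 6.81, 5.20 and 7.09 CPM in APP/PS1 and 3.87, 4.33 and 3.72 CPM in wild-type brains at 9 months. At 6 months it had 6.04, 4.93 and 4.53 CPM in APP/PS1 and 5.42, 6.75 and 7.10 CPM in wild-type brains. The groups did not overlap at 9 months and overlapped at 6 months. The log2 change at 9 months was 0.70 (SE 0.20, unadjusted p = 0.00523, edgeR adjusted p = 0.659), and the effects at 9 and 6 months differed by 1.03 (edgeR adjusted p = 0.432).

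miR-679-5p showed the same order of groups. It had 16.5, 13.5 and 14.8 CPM in APP/PS1 and 12.3, 11.98 and 11.3 CPM in wild-type brains at 9 months. At 6 months it had 9.33, 11.98 and 9.64 CPM in APP/PS1 and 13.6, 11.7 and 12.3 CPM in wild-type brains. APP/PS1 was above wild type without overlap at 9 months, and the groups overlapped at 6 months. The log2 changes were -0.30 at 6 months (edgeR adjusted p = 0.753) and 0.36 at 9 months (edgeR adjusted p = 0.769), and their difference of 0.66 had an adjusted p of 0.432. Without the first wild-type library of 6 months the change of miR-679-5p at 6 months was -0.18. miR-411-3p had 216, 203 and 226 CPM in APP/PS1 and 197, 199 and 182.6 CPM in wild-type brains at 9 months, a separation without overlap of 0.18 on the log2 scale (edgeR adjusted p = 0.769). miR-341-5p, from the middle stretch, had 7.57, 6.59 and 11.5 CPM in APP/PS1 and 5.16, 5.99 and 7.08 CPM in wild-type brains at 9 months, with overlap (log2 change 0.51, edgeR adjusted p = 0.836). Without the third APP/PS1 library of 9 months, the highest, the change of miR-341-5p was 0.24.

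**Figure D4:**
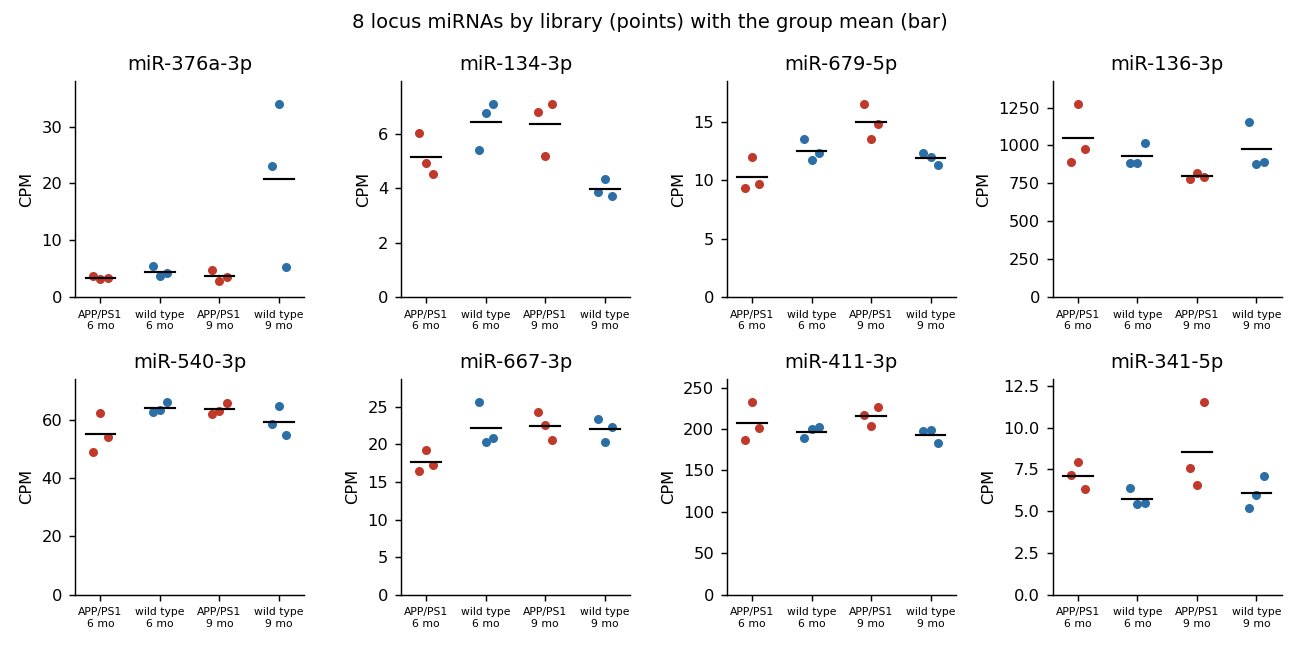
CPM (y axes, each from 0) of 8 locus members in each library (points, red for APP/PS1 and blue for wild type) with the group mean as a bar, at 6 and 9 months (x axes). The 2 high wild-type libraries of 9 months stand out for miR-376a-3p, at 23.0 and 34.0 CPM.

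miR-136-3p, antisense to Rtl1, stood below wild type in APP/PS1 brains at 9 months without passing the test. It had 777, 820 and 791 CPM in APP/PS1 and 1153, 880 and 894 CPM in wild-type brains. The APP/PS1 libraries were all lower, by a log2 change of -0.27 (SE 0.11, edgeR adjusted p = 0.769). At 6 months the order was not the same, with 893, 1273 and 974.7 CPM in APP/PS1 and 886, 883 and 1018 CPM in wild-type brains, and the groups overlapped (log2 change 0.15, edgeR adjusted p = 0.774). That change was 0.085 without the second APP/PS1 library of 6 months and 0.22 without the third wild-type library.

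At 6 months the smallest p-values belonged to miR-540-3p and miR-667-3p, both below wild type in APP/PS1 brains. miR-540-3p had 49.1, 62.4 and 54.1 CPM in APP/PS1 and 62.7, 63.2 and 66.1 CPM in wild-type brains, so the highest APP/PS1 library almost met the lowest wild-type library. Its log2 change was -0.23 (SE 0.08, edgeR adjusted p = 0.656). miR-667-3p had 16.5, 19.2 and 17.3 CPM in APP/PS1 and 25.7, 20.3 and 20.8 CPM in wild-type brains (log2 change -0.35, edgeR adjusted p = 0.656). miR-496a-3p had 89.3, 92.8 and 68.3 CPM in APP/PS1 and 99.5, 106 and 97.5 CPM in wild-type brains (log2 change -0.29, edgeR adjusted p = 0.753). The change of miR-667-3p was -0.18 without the first wild-type library of 6 months and -0.22 without the 4 libraries high in miR-182-5p. Leaving out those 4 kept a single library of each genotype at 6 months. The change of miR-496a-3p was -0.17 without the third APP/PS1 library of 6 months and -0.62 without those 4 libraries. None of these 3 separations was seen at 9 months, when miR-540-3p had 62.1, 62.8 and 65.8 CPM in APP/PS1 and 58.4, 64.7 and 54.7 CPM in wild-type brains, and miR-667-3p had 24.4, 22.5 and 20.6 CPM in APP/PS1 and 23.4, 20.3 and 22.3 CPM in wild-type brains.

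The test of the difference itself called 0 members, and 0% of all miRNAs tested. At an unadjusted p under 0.05 the genotype effect differed between ages for 11 of 80 members (13.8%), 9 with the larger value at 9 months, against 6.25% of all tested. The median difference was 0.06 for the members and 0.01 for all tested. Without the third wild-type library of 6 months the median for the members was -0.03. DESeq2 on all libraries called 0 members, with 6 of 80 at an unadjusted p under 0.05, against 29 of all 560 tested.

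No member was called by age, compared over both genotypes, in edgeR. At 9 against 6 months 0 of 80 members were called, where 1.96% of all miRNAs tested were, and 5 members reached an unadjusted p under 0.05 against 10.9% of all. The called miRNAs outside the locus were mostly of the miR-182 and miR-200 families, which were high in most libraries of 6 months. miR-376a-3p had a log2 change of 1.14 (edgeR adjusted p = 0.278). DESeq2 called it with an adjusted p of 0.0254, and edgeR did so without the third wild-type library of 9 months, at 1.37 and an adjusted p of 0.00665. For age DESeq2 called 16 of all 560 tested, and edgeR without that library called 2 of 573. miR-493-5p had 47.7, 39.7 and 40.7 CPM in APP/PS1 and 42.8, 47.1 and 39.8 CPM in wild-type brains at 9 months. At 6 months it had 35.7, 53.0 and 24.6 CPM in APP/PS1 and 33.6, 25.5 and 27.8 CPM in wild-type brains. The 9-month libraries were the more even, and the log2 change with age was 0.35 (edgeR adjusted p = 0.419), or 0.76 without the 4 libraries high in miR-182-5p. That last fit kept a single library of each genotype at 6 months. miR-668-3p had a log2 change with age of -0.15 (edgeR adjusted p = 0.447).

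Arm use differed widely between hairpins and little between libraries for most of them. Both arms were counted for 46 precursors, the 3p arm the more abundant in 26 and the 5p arm in 20. Of the 32 locus precursors with a mean of at least 10 reads on each arm, 17 had arms more than 10-fold apart. miR-541 was the most uneven of them, with 0.175% of its reads on the 3p arm, and miR-485, known to act on synapses, was the most even, at 50.9% with a range over libraries of 48.3 to 55.5%. miR-127 kept 97.6% on the 3p arm, between 97.3 and 97.8% in every library, and miR-434 kept 11.3%. miR-299b-3p and miR-299b-5p held the same count in each of the 12 libraries, so their values are not those of 2 separate measurements and are not interpreted.

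Arm balance did not pass the test for any locus precursor. In limma on the log2 ratio of 3p to 5p reads 0 locus precursors were called in every contrast, and 0% of the 144 precursors of the table. At 9 months 4 locus precursors had an unadjusted p under 0.05, of 7 in the table. miR-376a had 17.9, 9.20 and 11.4% of its reads on the 3p arm in APP/PS1 and 41.9, 54.8 and 20.1% in wild-type brains at 9 months (log2 difference of the ratio -2.07, SE 0.52, limma adjusted p = 0.166). miR-299a had 76.4, 72.4 and 75.4% on the 3p arm in APP/PS1 and 83.2, 83.6 and 79.6% in wild-type brains (log2 difference -0.64, SE 0.16, limma adjusted p = 0.166). Neither pair of groups overlapped, and the share of all precursors without overlap is not given here. Without the third wild-type library of 9 months both were called, miR-376a at -2.70 with an adjusted p of 0.0121 and miR-299a at -0.76 with an adjusted p of 0.0431. The number of all precursors called in that fit is not given here. Other alternatives brought miR-376a down to -1.57 and miR-299a down to -0.55, and limma adjusted p went up to 0.718 for both.

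**Figure D5:**
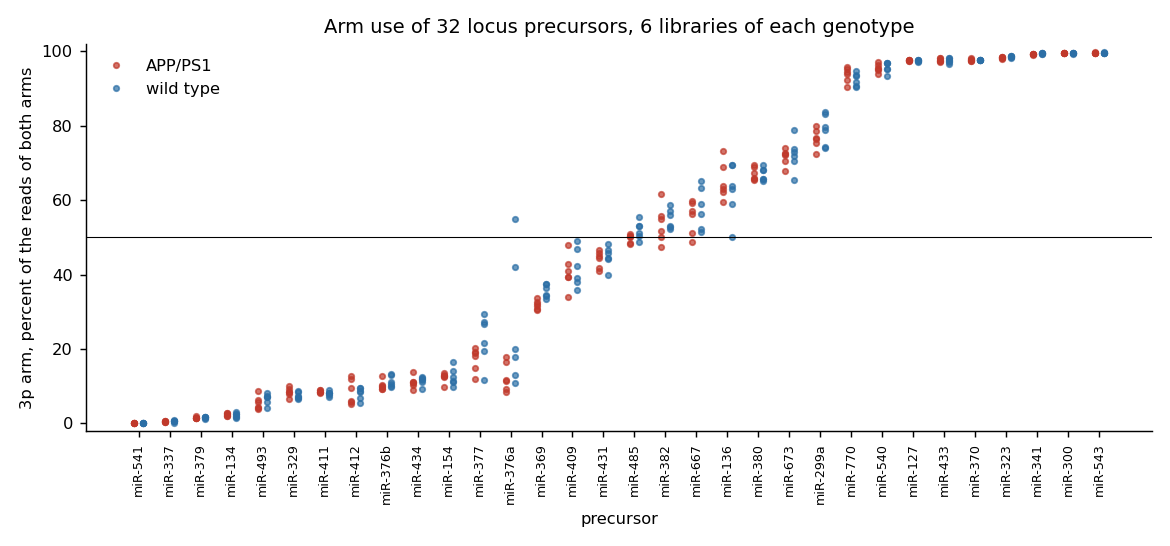
Percent of the reads of both arms that lie on the 3p arm (y axis) for 32 locus precursors ordered by that share (x axis), with 1 point for each of the 6 APP/PS1 (red) and 6 wild-type (blue) libraries. Most precursors sit near one end in every library, and the 2 wild-type points of miR-376a above 40% are its 41.9% and 54.8%.

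Members did not move as 1 block from library to library. Over the 50 members with a mean of at least 200 reads, the median Pearson correlation between pairs, on deviations of log2 CPM from the group mean in 12 libraries, was 0.07, with the middle 50% of pairs from -0.23 to 0.41. Among 228 other miRNAs it was 0.01. Arms of one hairpin gave a median of 0.23 over 14 pairs in the locus and 0.07 over 43 pairs elsewhere. Pairs within the proximal stretch had a median of 0.05, within the distal stretch 0.05 and between the stretches 0.08. These values describe libraries that share depth and composition, and carry no test. The members most like miR-127-3p over the 12 libraries were miR-379-5p at 0.83 and miR-666-5p at 0.80, while miRNAs outside the locus reached 0.91 with miR-1843a-5p.

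The long RNAs that carry the hairpins were not called either. Mirg, host of the last distal hairpins, had 4.56, 5.29 and 5.13 FPKM in APP/PS1 and 6.07, 7.34 and 6.80 FPKM in wild-type brains at 6 months. The groups did not overlap, and the log2 change was -0.41 on the log2(FPKM + 0.25) scale (SE 0.14, limma adjusted p = 0.446). At 9 months Mirg had 5.53, 6.22 and 6.92 FPKM in APP/PS1 and 6.88, 5.20 and 7.53 FPKM in wild-type brains, with overlap (log2 change -0.06). Rian, host of the middle stretch, has 2 gene entries. The more abundant one had 71.0, 80.6 and 68.6 FPKM in APP/PS1 and 79.7, 79.7 and 84.6 FPKM in wild-type brains at 6 months, with overlap (log2 change -0.15, limma adjusted p = 0.730), and -0.02 at 9 months. Meg3 was not analysed here.

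The paternally expressed genes were low. Dlk1, which encodes a Notch ligand relative, had 1.72, 0 and 0 FPKM in APP/PS1 and 2.03, 2.49 and 1.39 FPKM in wild-type brains at 9 months. It had 1.52, 1.54 and 1.58 FPKM in APP/PS1 and 0, 3.16 and 1.82 FPKM in wild-type brains at 6 months. A value listed at 0 can be a failed estimate, and the log2 change of -2.13 at 9 months had a limma adjusted p of 0.496 and was -1.07 with a pseudocount of 1. Dio3, the deiodinase that inactivates thyroid hormone, had 1.26, 1.08 and 1.18 FPKM in APP/PS1 and 1.39, 1.24 and 1.499 FPKM in wild-type brains at 9 months, a log2 change of -0.19 (limma adjusted p = 0.720). Both Rtl1 entries were below the filter on low values. Begain, a brain gene beside Dlk1, had 24.0, 15.1 and 16.0 FPKM in APP/PS1 and 21.9, 28.8 and 22.5 FPKM in wild-type brains at 9 months, with overlap (log2 change -0.43, limma adjusted p = 0.565).

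No gene of the locus or of the related lists was called by limma. Of the 8 locus entries tested, which include genes that flank the imprinted ones, such as Begain and Wdr25, 0 were called in any contrast. The same held for 16 entries of miRNA processing and effector genes, 12 of regulators of the locus, 9 of described targets of locus miRNAs and 20 of imprinted genes elsewhere. Over all 13593 mRNA genes tested limma called 0.0441% at 6 months, 0.0956% at 9 months, 0.118% over both ages, 0.0147% for age and 0.00736% for the difference between ages. Over all 1367 lncRNA genes it called 0% for each genotype contrast and for the difference, and 0.366% for age. At an unadjusted p under 0.05 there was 1 locus entry at each age, Mirg at 6 months and Dlk1 at 9 months. Processing genes gave 2 at 6 months and 5 at 9 months, described targets 0 at 6 months and 2 at 9 months, regulators 0 at both ages, and imprinted genes elsewhere 2 at 6 months and 0 at 9 months. At that threshold stood 11.7% of all mRNA genes at 6 months and 9.73% at 9 months, and 7.32% of all lncRNA genes at 6 months and 4.17% at 9 months.

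Among the processing genes, Adarb1, which encodes the RNA-editing deaminase ADAR2, had 41.3, 39.6 and 42.1 FPKM in APP/PS1 and 21.1, 21.2 and 42.5 FPKM in wild-type brains at 9 months. The first 2 wild-type libraries were low and the third lay with all others, which ran from 36.6 to 45.0 FPKM. The log2 change was 0.61 (SE 0.21, limma adjusted p = 0.381), and without the third wild-type library it was 0.94 with an adjusted p of 0.000897. The number of all genes called in that fit is not given here. Over all alternatives run, the change ranged from 0.44 to 0.94, with limma adjusted p up to 0.741. In the first 2 wild-type libraries of 9 months the authors' estimates also divided the gene differently among its transcripts. ENSMUST00000105406 had 5.96 and 5.57 FPKM there and at most 0.0934 FPKM in the other 10 libraries. Adar, the related deaminase ADAR1, had 39.9, 38.5 and 38.8 FPKM in APP/PS1 and 32.4, 33.4 and 34.7 FPKM in wild-type brains at 6 months, without overlap (log2 change 0.22, limma adjusted p = 0.242). The effects on Adar at 9 and 6 months differed by -0.33 (limma adjusted p = 0.262).

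Of the described targets, Bdnf, the neurotrophin, had 7.91, 7.91 and 6.59 FPKM in APP/PS1 and 10.8, 8.80 and 9.17 FPKM in wild-type brains at 9 months. APP/PS1 was lower in every library, with a log2 change of -0.35 (SE 0.10, limma adjusted p = 0.313). Sirt1, a deacetylase, had 4.43, 1.98 and 2.19 FPKM in APP/PS1 and 4.55, 4.19 and 4.83 FPKM in wild-type brains at 9 months (log2 change -0.70, limma adjusted p = 0.324). Without the first APP/PS1 library of 9 months the change was -1.03 with an adjusted p of 0.00098. The number of all genes called in that fit is not given here. Over all alternatives run, the change of Sirt1 ranged from -1.03 to -0.49, with limma adjusted p up to 0.641. Its FPKM was carried by a single transcript in most libraries, and by different ones: ENSMUST00000020257 held 4.42 FPKM in the first APP/PS1 library of 9 months, and ENSMUST00000120239 held 1.98 and 2.19 FPKM in the other 2.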

How the data were processed

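Small RNA reads were deposited by the authors as whole-number counts per mature miRNA, with a column headed TPM that equals CPM (counts scaled to a common total) of the library total; long RNA was deposited by the authors as FPKM per transcript. Bowtie 0.12.2 and build mm8 are named, without a role, per the submitters' processing notes; how reads were trimmed and counted, and against which annotation, is not stated there. RefSeq sequences and positions are on GRCm38.p6, and no coordinate was taken from the deposited files. circRNA values were not used here, since they could not be tied to the locus.

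Counts of all miRNAs were fitted with edgeR 4.0.16 (filterByExpr, TMM, quasi-likelihood F test, 4 group means over 12 libraries). The log2 ratio of 3p to 5p reads (0.5 reads added, mean of at least 10 reads per arm) and log2(FPKM + 0.25) summed per gene (mean of at least 0.5 FPKM) were fitted with limma 3.58.1 with a trend. All tests were two-sided, with Benjamini-Hochberg adjustment over the whole table and a threshold of 0.05. R was 4.3.3 and DESeq2, an alternative, 1.42.0. The main edgeR and limma fits were tested on simulated data, for the genotype contrast at 9 months only. There 46.3% of 67 miRNAs changed 1.5-fold, 76.1% of 67 changed 2-fold and 95.5% of 66 changed 4-fold were called, among 555 tested. So many changed miRNAs ease the Benjamini-Hochberg threshold. The data themselves gave 0 calls among 560 miRNAs in that contrast, so recovery in the data can be lower than these shares. Intervals are 95%.

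The members and gene lists were chosen with earlier results of these data known. Named members were the 12 most abundant, those of smallest unadjusted p per direction and contrast, and the lowest tested; for genes, those of the locus and the 2 of smallest p per other list. From these, the text gives values for those on which a comparison turns. Alternatives changed scaling, filter, tool, pseudocount, replicate block and each library left out in turn.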

Additional observations from a re-analysis of the deposited data

How the results depend on the processing

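Counts of called members at 6 months stayed at 0 under every alternative run that kept more than a single library in each group. Leaving out the 4 libraries high in miR-182-5p kept a single library of each genotype at 6 months, so calls from that fit are not given. With DESeq2, 1 member, miR-376a-3p, was called at 9 months, over both ages and for age, where 2, 1 and 16 of all 560 tested were called. Without a filter on low counts 1 member was called in these and for the difference between ages. That setting called 14, 20, 28 and 15 of all 1411 in these 4 contrasts, and 27 at 6 months. Leaving out 1 library gave 0 to 1 members for each of the 4. Called arm ratios ranged from 0 to 2 at 9 months and 0 to 1 over both ages when 1 library was left out.

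The median log2 change of members at 6 months was -0.0040 with a mean of at least 50 reads, and -0.067 to 0.028 with 1 library left out. At 9 months it was -0.024 with scaling from miRNAs outside the locus and -0.034 to 0.049 with 1 library left out. For the difference between ages it was 0.011 with no scaling beyond the total, 0.019 with scaling from outside the locus, 0.015 with at least 50 reads and -0.032 to 0.12 with 1 library left out.

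Without the most abundant miRNA in the total, the locus share was 12.2% in APP/PS1 and 12.5% in wild-type brains at 6 months and 12.6% in APP/PS1 and 12.3% in wild-type brains at 9 months.

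The sign reversed for miR-493-5p at 6 months (-0.042) without the 4 libraries high in miR-182-5p, an alternative chosen after seeing the data. That fit kept a single library of each genotype at 6 months. With 1 library left out, signs reversed for Dlk1 at 6 months (-0.57 to 1.32), the lower Rian entry at 9 months (-0.24 to 0.25), the higher Rian entry (-0.058 to 0.0088) and Mirg (-0.21 to 0.050). The cause was not tested.

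Same-numbered libraries of the 2 genotypes did not deviate together in a regular way (r of 0.44, -0.30 and -0.58 at 6 months and 0.10, -0.04 and 0.04 at 9 months). The labels do not say whether equal numbers pair the samples, and correlations over so few libraries cannot decide it. With the replicate block 0 members were called in any genotype contrast or for the difference between ages. The blocks lay within an age, so this fit cannot estimate a change with age, and its values for age are not given. The replicate block called 1 related gene, the second Dgcr8 entry, at 9 months, over both ages and for the difference. Leaving out 1 library gave 0 to 1 in these. That entry was listed at 0 in all 3 wild-type libraries of 9 months.

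With 3 libraries a group, members at a few CPM rest on few reads, and differences under 1.5-fold were not detectable for many of them. In the simulated data some 2-fold changes were missed as well.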

Other observations

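The level of miR-376a-3p and the FPKM of Adarb1 were extreme in libraries of the same group and number, the first 2 of wild type at 9 months: 23.0 and 34.0 CPM with 21.1 and 21.2 FPKM. The third had 5.31 CPM and 42.5 FPKM, and the APP/PS1 libraries of 9 months had 2.77 to 4.79 CPM and 39.6 to 42.1 FPKM. The labels do not say that equal numbers mark the same mouse in the small and long RNA libraries, and whether the values are related was not tested.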
